A study of Mus musculus with 9 samples.

Results

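Ptprz1 was studied together with its ligands Ptn and Mdk and with 7 related receptor-type protein tyrosine phosphatases, Ptprg, Ptprd, Ptprf, Ptprs, Ptprk, Ptprm and Ptprj. These 10 genes were taken by symbol from the 46078 genes of the count table, each symbol had a single row, and all 10 were among the 16722 genes with enough counts to be tested. Ptprz1 was chosen because its level differed between the genotypes in these same libraries, so its values are given as a description with no test. The other 9 genes were chosen for their family or for binding Ptprz1.

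Ovaries of 5 wild-type (WT) and 4 ERβKO mice on a C57BL/6J background gave 1 RNA-seq library per mouse. In ERβKO mice exon 3 of Esr2, the gene of estrogen receptor β (ERβ), was deleted in the germline: floxed mice were crossed with a Rosa26-Cre deleter line, and the knockouts came from breeding heterozygotes. The deletion was therefore carried by every cell type of the ovary and by all other organs. WT mice were offspring that carried no Cre. All 9 ovaries are labelled as untreated, although a protocol text shared by the samples describes feeding of a high-fat or control diet and injection of the ERβ ligand DPN or vehicle. Mice across all the study's experiments were 4 to 20 weeks old, with no fixed stage of the estrus cycle. The ovary was measured whole, so fewer cells of a type and less RNA per cell cannot be told apart.

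PTPRZ1 is a transmembrane phosphatase that removes phosphate from tyrosines and carries chondroitin sulphate chains outside the cell. It is best known from glia and their precursors in the brain. Pleiotrophin (Ptn) and midkine (Mdk) are small secreted growth factors that bind heparin and these chains, and pleiotrophin switches the phosphatase off by bringing receptors together, so that substrates such as β-catenin, Git1 and Magi1 stay phosphorylated. PTPRG is the closest relative and shares the carbonic anhydrase-like domain. PTPRD, PTPRF (LAR) and PTPRS are receptors for synaptic adhesion molecules and proteoglycans, PTPRK and PTPRM bind their own kind on neighbouring cells, and PTPRJ (CD148) has a single catalytic domain.

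Between 12353740 and 16519975 counts were assigned to genes in a WT library (median 14880505) and between 13088728 and 18717510 in an ERβKO library (median 15428802). FPKM are the deposited levels, fragments scaled to gene length and library size. The count of Esr2 covers the whole gene, exons outside the deletion included, and ran from 12.4 to 23.9 FPKM in WT and from 10.5 to 23.7 FPKM in ERβKO ovaries, so it does not check the labels. The log2 fold change (log2FC) is ERβKO over WT on counts, and FDR is the Benjamini-Hochberg adjusted p of edgeR's quasi-likelihood test over all tested genes. A gene was called differentially expressed (DEG) when the FDR was under 0.05, the log2FC exceeded 0.4 in size and mean FPKM exceeded 1 in either genotype. Of all tested genes 287 were DEGs, 153 higher and 134 lower in ERβKO ovaries. This number depended on single ovaries. Without WT replicate 2 it rose to 919, and it fell to 60 without ERβKO replicate 2, 80 without ERβKO replicate 4, 110 without WT replicate 5, 118 without WT replicate 1, 152 without ERβKO replicate 3 and 161 without WT replicate 4.

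Ptprz1 (ENSMUSG00000068748) lies on the plus strand of chromosome 6 of GRCm38 from 22875502 to 23052916 and has 6 annotated transcripts that share no exon sequence with another gene; all coordinates given here are on GRCm38. The promoters of Ptprz1 and of its closest relative Ptprg are shown, as the pair in which one gene differed between the genotypes. Both are from RefSeq on GRCm38.p6, plus strand: 250 bases before the start of Ptprz1 (chr6:22875252-22875501) and 229 bases before the start of Ptprg (chr14:11553303-11553531). Capitals mark the Sp1 motif GGGCGG on either strand.
Ptprz1: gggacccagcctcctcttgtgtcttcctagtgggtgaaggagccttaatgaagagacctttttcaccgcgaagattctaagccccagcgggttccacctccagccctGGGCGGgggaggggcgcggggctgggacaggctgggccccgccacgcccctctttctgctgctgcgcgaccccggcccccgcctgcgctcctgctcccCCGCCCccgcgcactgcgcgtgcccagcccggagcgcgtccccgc
Ptprg: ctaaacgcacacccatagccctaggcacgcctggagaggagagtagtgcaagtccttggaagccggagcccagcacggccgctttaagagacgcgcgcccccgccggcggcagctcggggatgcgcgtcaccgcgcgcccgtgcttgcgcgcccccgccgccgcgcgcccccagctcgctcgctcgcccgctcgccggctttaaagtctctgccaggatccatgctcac

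In the window of 250 bases before the start, the promoter of Ptprz1 held 2 matches to the Sp1 motif, which was found in 32.7% of 32851 mouse promoters, and the first promoter of Ptprg held 0. The 2 matches in Ptprz1 are those in capitals above. The Sp1 motif also occurred 5 times in the second promoter of Ptprj and 3 times in the second promoter of Ptprs. It occurred 2 times each in the promoters of Ptprf and Ptprm, 1 time in that of Ptprk and 0 times in the remaining windows. The full estrogen response element, GGTCA and TGACC spaced by 3 bases, was found in 0.0639% of all promoters on either strand and in none of the 11 promoters listed for 8 of the 10 genes. Its single arm GGTCA, present in 35.2% of all promoters, occurred 1 time in the second promoter of Ptprg and 2 times in the first promoter of Ptprs. Neither the NR5A motif AAGGTCA, which contains that arm and was found in 4.08% of all promoters, nor the AP-1 motif TGANTCA (6.75%) nor the GATA motif AGATAA (9.99%) occurred in these windows. These matches describe letters in short windows and do not show binding. Mdk and Ptprd had no entry.

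Ptprz1 was a gene of low level in WT ovaries and of moderate level in ERβKO ovaries. Its FPKM were 1.83, 1.71, 1.23, 1.46 and 1.10 across WT replicates 1 to 5, compared with 6.70, 5.72, 5.34 and 6.57 across ERβKO replicates 1 to 4. Every ERβKO ovary lay above every WT ovary, and the lowest ERβKO value was well clear of the highest WT value. These levels rested on at most 205 counts in a WT library and on 522 to 762 counts in an ERβKO library. The mean was 1.47 ± 0.31 FPKM across WT ovaries (SD, n = 5) and 6.08 ± 0.66 FPKM across ERβKO ovaries (SD, n = 4), a ratio of 4.15. On counts the log2FC was 1.89 (SE 0.15, 95% interval 1.56 to 2.21), the value for which the gene was chosen. Among the 153 DEGs higher in ERβKO ovaries it ranked 14 by log2FC. With each ovary left out in turn the value lay between 1.81 and 1.97.

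**Figure D1:**
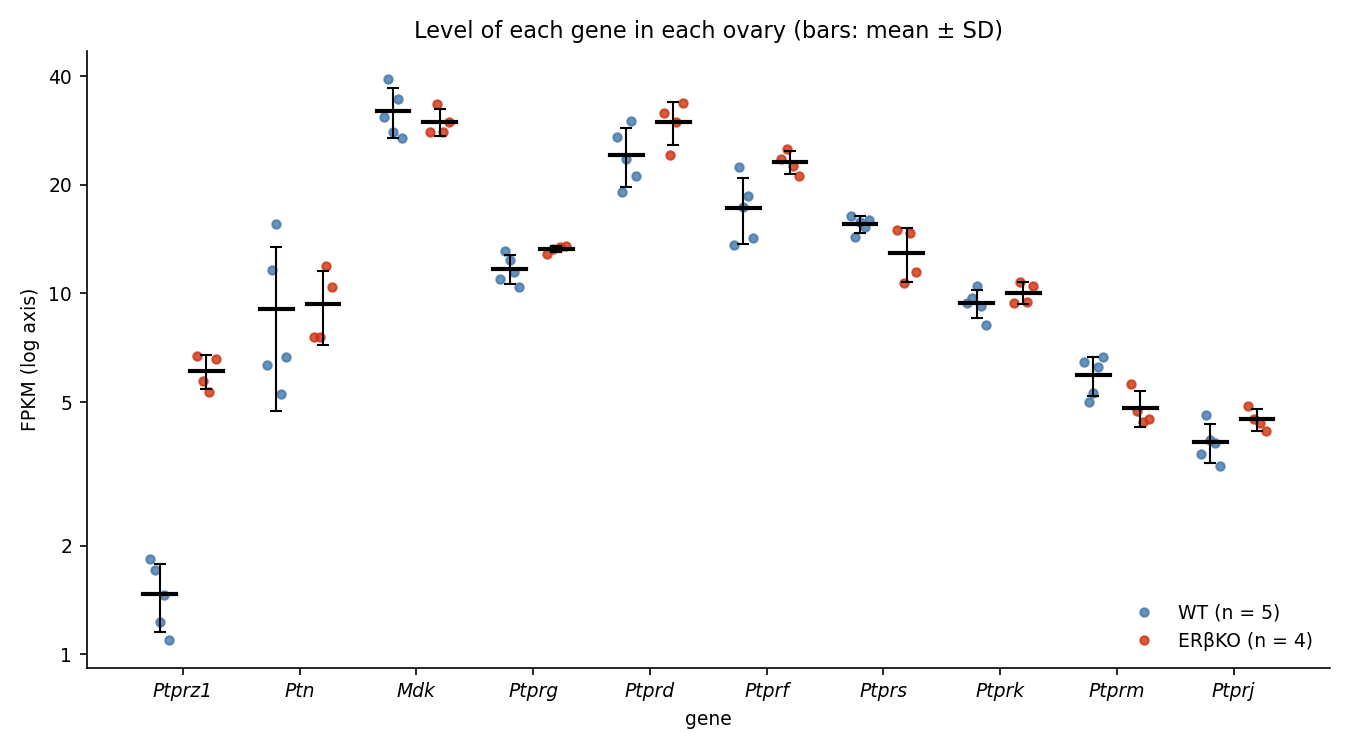
FPKM (log axis) of the 10 genes in each of 5 WT (blue) and 4 ERβKO (red) ovaries; points are ovaries, and bars are the mean ± SD. For Ptprz1 all 4 ERβKO ovaries lie above all 5 WT ovaries, while for the other 9 genes the genotypes overlap.

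Neither ligand differed between the genotypes by the criteria for DEGs. Ptn, on the minus strand of chromosome 6 from 36714929 to 36810220 (ENSMUSG00000029838), varied widely among ovaries of one genotype. Its FPKM were 6.33, 11.6, 15.5, 5.25 and 6.66 across WT replicates 1 to 5, compared with 7.56, 7.55, 11.9 and 10.4 across ERβKO replicates 1 to 4. WT replicates 2 and 3 were high, the other 3 WT ovaries were below every ERβKO ovary, and the coefficient of variation was 48.1% in WT and 23.2% in ERβKO ovaries. Mdk, on the minus strand of chromosome 2 from 91929805 to 91932297 (ENSMUSG00000027239), was the more abundant ligand in every ovary. It had FPKM of 30.8, 39.3, 28.0, 34.6 and 27.0 across WT replicates 1 to 5, compared with 28.0, 33.5, 28.0 and 29.8 across ERβKO replicates 1 to 4. All 4 ERβKO values lay within the WT range.

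The mean of Ptn was 9.07 ± 4.4 FPKM across WT ovaries (SD, n = 5) and 9.36 ± 2.2 FPKM across ERβKO ovaries (SD, n = 4), with a log2FC of 0.019 (SE 0.31). The mean of Mdk was 31.9 ± 5.1 FPKM across WT ovaries (SD, n = 5) and 29.8 ± 2.6 FPKM across ERβKO ovaries (SD, n = 4), with a log2FC of -0.12 (SE 0.11). Neither ligand passed the test, at an FDR of 0.978 for Ptn and 0.567 for Mdk in edgeR. The 95% interval of the log2FC was wide for Ptn, from -0.66 to 0.70, and narrower for Mdk, from -0.37 to 0.12. Changes of Ptn in either direction within its interval remain compatible with the values of these 9 ovaries. The sign of its log2FC depended on single ovaries: it was -0.12 without WT replicate 4 and 0.29 without WT replicate 3.

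The level of each ligand relative to that of the receptor was lower in ERβKO ovaries. The ratio of Mdk to Ptprz1 in FPKM was 16.8, 22.9, 22.8, 23.7 and 24.7 across WT replicates 1 to 5, compared with 4.18, 5.86, 5.24 and 4.53 across ERβKO replicates 1 to 4. The ratio of Ptn to Ptprz1 was 6.51 ± 3.7 across WT ovaries (SD, n = 5, range 3.45 to 12.7) and 1.57 ± 0.48 across ERβKO ovaries (SD, n = 4, range 1.13 to 2.23). Both ratios were lower in every ERβKO ovary than in every WT ovary, and they carry no test, since they contain the level of Ptprz1 for which that gene was chosen. The summed level of both ligands was 41.0 ± 6.6 FPKM across WT ovaries (SD, n = 5) and 39.2 ± 2.5 FPKM across ERβKO ovaries (SD, n = 4). The ratio of Mdk to Ptn, which does not involve Ptprz1, was 4.14 ± 1.8 across WT ovaries (SD, n = 5) and 3.34 ± 0.92 across ERβKO ovaries (SD, n = 4), with overlapping ranges.

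**Figure D2:**
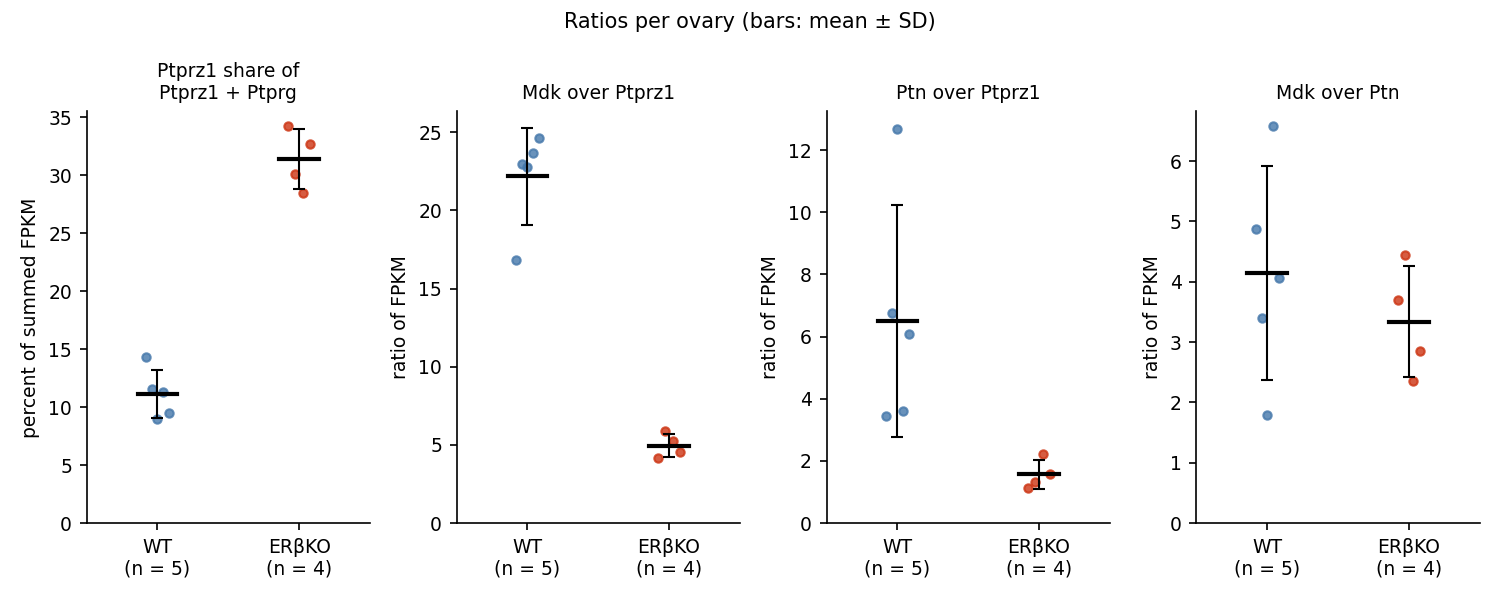
Ratios of FPKM within each ovary: the share of Ptprz1 in the sum of Ptprz1 and Ptprg (percent), Mdk over Ptprz1, Ptn over Ptprz1 and Mdk over Ptn, in WT (blue) and ERβKO (red) ovaries; points are ovaries, and bars are the mean ± SD. In the 3 panels that contain Ptprz1 the genotypes are apart, and for Mdk over Ptn they overlap.

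Ptprg, the closest relative, lies on the plus strand of chromosome 14 from 11553532 to 12242041 (ENSMUSG00000021745). Its FPKM were 11.0, 13.1, 12.4, 11.5 and 10.4 across WT replicates 1 to 5, compared with 12.9, 13.3, 13.4 and 13.5 across ERβKO replicates 1 to 4. Of the 4 ERβKO ovaries 3 were above every WT ovary, by a small margin. The log2FC was 0.18 (SE 0.067, 95% interval 0.027 to 0.33), with an FDR of 0.187 in edgeR. Ptprz1 made up 11.1 ± 2.1% of the summed FPKM of Ptprz1 and Ptprg across WT ovaries (SD, n = 5) and 31.4 ± 2.6% across ERβKO ovaries (SD, n = 4). Ptprg thus remained the more abundant of the pair in all 9 ovaries. In TPM, another scaling of the same deposited files, the genotypes did not overlap for Ptprg, at 8.42 ± 0.40 across WT ovaries (SD, n = 5) and 9.48 ± 0.39 across ERβKO ovaries (SD, n = 4). For Ptprg they overlapped in FPKM, and also in the deposited coverage and in counts per kilobase of annotated exons, both described below. The share of all genes without overlap was not calculated in TPM.

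Among the LAR-type phosphatases Ptprd and Ptprf had higher means in ERβKO ovaries and Ptprs a lower mean, and none of the 3 passed the test. Ptprf (ENSMUSG00000033295), on chromosome 4 from 118208213 to 118291405 (minus strand), had the largest absolute log2FC of the 9 other genes. Its FPKM were 13.6, 22.4, 17.4, 18.6 and 14.3 across WT replicates 1 to 5, compared with 23.5, 25.1, 22.6 and 21.1 across ERβKO replicates 1 to 4. WT replicate 2 stood above the other WT ovaries and above ERβKO replicate 4, and it is the ovary on which the overlap rests. The log2FC was 0.39 (SE 0.12, 95% interval 0.12 to 0.66), at an FDR of 0.121 with edgeR and 0.0638 with DESeq2. Without WT replicate 2 it was 0.49, the FDR in edgeR was 0.0221, and Ptprf met the criteria for DEGs, as did 5.56% of all genes tested without that ovary, 2.95% of them in this direction. Over 18 alternative fits the FDR of Ptprf ran from 0.0221 to 0.332.

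Ptprd (ENSMUSG00000028399), on chromosome 4 from 75941238 to 78211961 (minus strand), had the highest mean of the 8 phosphatases in FPKM. It had FPKM of 27.1, 19.1, 23.6, 30.1 and 21.1 across WT replicates 1 to 5, compared with 31.7, 24.2, 29.9 and 33.7 across ERβKO replicates 1 to 4. The ranges of the genotypes overlapped, and the log2FC was 0.30 (SE 0.13). Ptprs (ENSMUSG00000013236), on chromosome 17 from 56412431 to 56476483 (minus strand), is a receptor for chondroitin and heparan sulphate proteoglycans. It had FPKM of 16.4, 14.3, 15.8, 15.2 and 16.0 across WT replicates 1 to 5, compared with 15.0, 10.7, 14.7 and 11.5 across ERβKO replicates 1 to 4. ERβKO replicates 2 and 4 were below all WT ovaries, while replicates 1 and 3 lay within the WT range. The log2FC of Ptprs was -0.27 (SE 0.091, 95% interval -0.47 to -0.065). In edgeR the FDR was 0.253 for Ptprd and 0.146 for Ptprs. The summed FPKM of the 3 LAR-type genes was 57.0 ± 4.5 across WT ovaries (SD, n = 5) and 65.9 ± 4.3 across ERβKO ovaries (SD, n = 4), with overlapping ranges.

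Of the 2 genes whose products bind their own kind, Ptprk had similar means in both genotypes and Ptprm a lower mean in ERβKO ovaries, and neither passed the test. Ptprk (ENSMUSG00000019889), on chromosome 10 from 28074820 to 28597397 (plus strand), had FPKM of 9.41, 9.72, 10.5, 9.24 and 8.18 across WT replicates 1 to 5, compared with 9.41, 10.8, 9.48 and 10.5 across ERβKO replicates 1 to 4. Its log2FC was 0.059 (SE 0.070), and the 95% interval from -0.096 to 0.21 ends at 1.16-fold on the higher side. Ptprm (ENSMUSG00000033278), on chromosome 17 from 66666848 to 67354459 (minus strand), had FPKM of 6.47, 5.01, 5.31, 6.24 and 6.67 across WT replicates 1 to 5, compared with 5.62, 4.73, 4.41 and 4.49 across ERβKO replicates 1 to 4. Of the ERβKO ovaries all but replicate 1 were below all WT ovaries. The log2FC of Ptprm was -0.33 (SE 0.11, 95% interval -0.57 to -0.084). The FDR in edgeR was 0.688 for Ptprk and 0.142 for Ptprm. Without WT replicate 2 the FDR of Ptprm in edgeR was 0.0462 at a log2FC of -0.39, within the limit of 0.4 in size, so Ptprm did not meet the criteria for DEGs in that fit either. Of the exon bases of Ptprm 5.18% are shared with another gene on the same strand, so a part of its counts may be assigned to either.

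Ptprj (ENSMUSG00000025314), on chromosome 2 from 90429754 to 90580647 (minus strand), had the lowest mean of the 7 related phosphatases in FPKM. In ERβKO ovaries its range overlapped that of Ptprm. It had FPKM of 3.60, 4.60, 3.93, 3.85 and 3.33 across WT replicates 1 to 5, compared with 4.88, 4.48, 4.38 and 4.15 across ERβKO replicates 1 to 4. WT replicate 2 was again the WT ovary that reached into the ERβKO range. The log2FC was 0.19 (SE 0.10), with an FDR of 0.342 in edgeR.

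**Figure D3:**
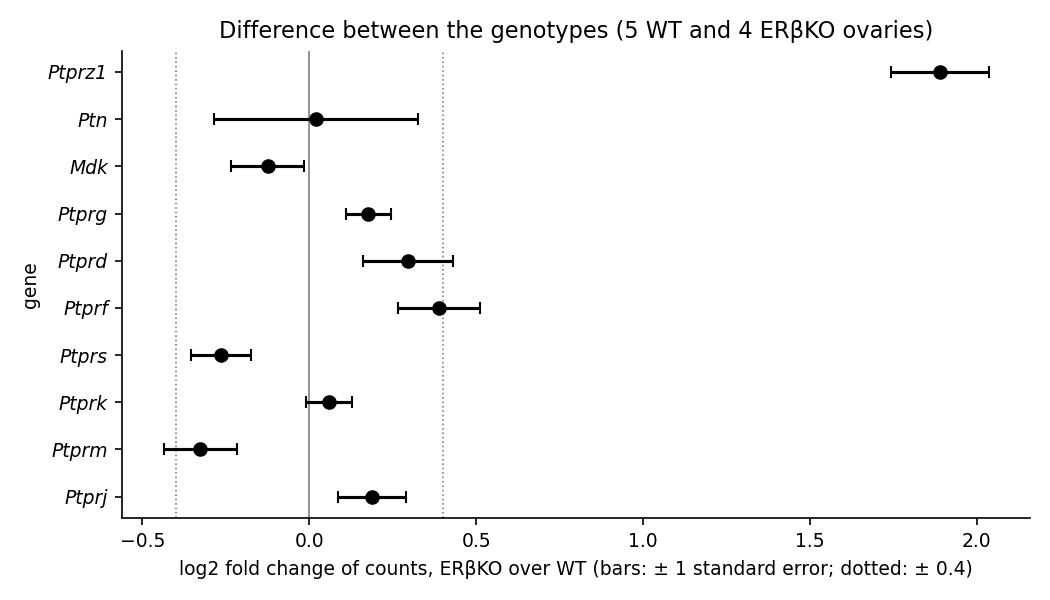
Log2FC of counts, ERβKO over WT, for the 10 genes; points are edgeR estimates, bars are ± 1 standard error, and dotted lines stand at ± 0.4, the limit used for DEGs. Ptprz1 lies at 1.89, and the other 9 genes lie between -0.33 and 0.39.

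By the criteria for DEGs 1 of the 10 genes, Ptprz1, was called, where 1.72% of all genes tested were called (0.915% higher and 0.801% lower in ERβKO ovaries). Since Ptprz1 was chosen on this contrast, nothing is read from that count. Of the other 9 genes 0 met the criteria in edgeR and 0 in DESeq2, which called 4.78% of all genes, and 4 (Ptprg, Ptprf, Ptprs and Ptprm) had an unadjusted p under 0.05, as did 19.8% of all genes tested. Their log2FC values were positive for 6 and negative for 3, with a median of 0.059, while 49.9% of all genes tested were positive and 50.1% negative, with a median of -0.00089. Two-sided exact permutation tests on FPKM gave unadjusted p values from 0.0317 for Ptprg and Ptprf to 0.873 for Ptn, where 0.0159 is the smallest that 5 against 4 ovaries allow. In FPKM the genotypes overlapped for all 9, while 8.15% of the 14178 tested genes with a mean FPKM over 1 did not overlap (4.56% higher and 3.59% lower in ERβKO ovaries).

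In WT ovaries the order of mean FPKM was Mdk, Ptprd, Ptprf, Ptprs, Ptprg, Ptprk, Ptn, Ptprm, Ptprj and Ptprz1. The ranges of neighbours in this order were apart only for Ptprs and Ptprg, for Ptprm and Ptprj and for Ptprj and Ptprz1, so the places between them are not fixed. In ERβKO ovaries the order was Ptprd, Mdk, Ptprf, Ptprg, Ptprs, Ptprk, Ptn, Ptprz1, Ptprm and Ptprj, and the ranges of neighbours were apart for Mdk and Ptprf, Ptprf and Ptprg, and Ptn and Ptprz1. Ptprz1 thus moved from place 10 to place 8 in FPKM, above Ptprm in 4 of 4 ERβKO ovaries. That place depends on the scale: Ptprz1 stayed at place 10 in both genotypes in the deposited coverage, which is not scaled for depth. It did so too in counts per kilobase of annotated exons, a scale added after the data were seen that differs from FPKM in both the counting and the length used, at 0.785 ± 0.17 across WT ovaries (SD, n = 5) and 2.91 ± 0.20 across ERβKO ovaries (SD, n = 4). Other places depend on the scale as well. Ptprd, at place 2 in WT and 1 in ERβKO ovaries in FPKM, was at places 8 and 6 in coverage. In counts per kilobase Ptprd was at place 4 in both genotypes.

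Of the summed FPKM of the 8 phosphatases, Ptprz1 supplied 1.64 ± 0.32% across WT ovaries (SD, n = 5) and 5.81 ± 0.49% across ERβKO ovaries (SD, n = 4). The sum of the 7 phosphatases other than Ptprz1 was 87.6, 88.2, 88.9, 94.7 and 79.9 FPKM across WT replicates 1 to 5, compared with 103.0, 93.3, 98.8 and 99.0 across ERβKO replicates 1 to 4. WT replicate 4 and ERβKO replicate 2 overlapped, and the other ERβKO ovaries were above all WT ovaries.

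Genes that act with these receptors and ligands were taken from 5 lists of 103 genes, of which 93 were tested. By the criteria for DEGs 6 of the 93 were called, or 6.45%, with 2 higher and 4 lower in ERβKO ovaries and a median log2FC of 0.037. Of all genes tested 1.72% were called, 0.915% higher and 0.801% lower in ERβKO ovaries. The same shares belong beside the count of each list given below. The lists were drawn up with earlier results of these data known, so these counts describe the lists and are no test of them. Without ERβKO replicate 2 the call remained for 1 of the 93, Magi1, while 60 genes in all were DEGs, and with the 3 WT and 4 ERβKO libraries numbered below 200 in the labels it remained for 1, Sdc3. DESeq2 called 8.

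**Figure D4:**
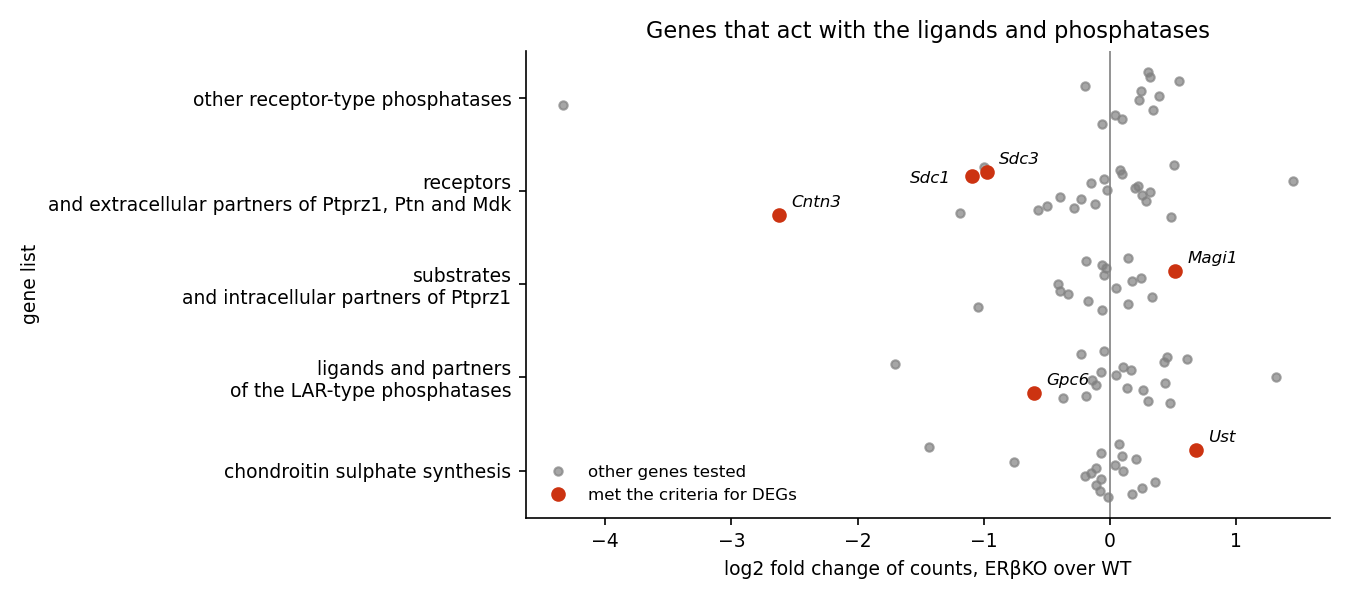
Log2FC of counts, ERβKO over WT, for the 93 tested genes of 5 lists; each point is a gene, and red points with names met the criteria for DEGs. Sdc1, Sdc3, Cntn3 and Gpc6 lie below 0, Magi1 and Ust lie above 0, and most other genes lie near 0.

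Of 27 genes listed as receptors and extracellular partners of Ptprz1, Ptn and Mdk, 24 were tested. By the criteria for DEGs 3 were lower in ERβKO ovaries and 0 were higher (median log2FC -0.080). All 3 are cell surface molecules. Sdc3, syndecan 3, a heparan sulphate proteoglycan that binds pleiotrophin and midkine, had FPKM of 18.2, 13.3, 16.3, 13.5 and 19.6 across WT replicates 1 to 5, compared with 8.21, 8.06, 9.57 and 7.34 across ERβKO replicates 1 to 4. All ERβKO values were below all WT values, and the log2FC was -0.98 (SE 0.14). Sdc1, syndecan 1, a proteoglycan of the same family, had FPKM of 42.3, 32.3, 33.2, 26.3 and 32.8 across WT replicates 1 to 5, compared with 17.6, 10.8, 22.6 and 12.3 across ERβKO replicates 1 to 4. The genotypes were apart, with ERβKO replicate 3 nearest to the WT range, and the log2FC was -1.09 (SE 0.22). The other members of the family, Sdc2 and Sdc4, had mean levels of 31.2 and 31.8 FPKM in WT and 33.8 and 34.2 FPKM in ERβKO ovaries, with FDR values of 0.484 and 0.582 in edgeR; they were named after their values were seen.

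Cntn3, contactin 3, an adhesion molecule anchored in the membrane by a lipid, had FPKM of 1.23, 0.444, 0.355, 1.22 and 2.07 across WT replicates 1 to 5, compared with 0.147, 0.127, 0.127 and 0.262 across ERβKO replicates 1 to 4. Cntn3 was listed together with other contactins, and whether its product binds PTPRZ1 was not examined. It was near the lower end of detection, with at most 27 counts in an ERβKO ovary, and the 2 lowest WT ovaries were close to the highest ERβKO ovary. Its log2FC was -2.62 (SE 0.55). FDR values in edgeR were 0.0115 for Sdc3, 0.0345 for Sdc1 and 0.0408 for Cntn3. Sdc3 was not called without ERβKO replicate 2 (FDR = 0.0513 in edgeR, the highest of a range from 3.96e-08 over 18 alternative fits), nor was Sdc1 without WT replicate 1 or 5 or ERβKO replicate 1, 2 or 4, and Cntn3 was called in 2 of 9 fits that left out an ovary, those without WT replicate 2 or 3. Of the exon bases of Sdc3 7.73% overlap a gene on the opposite strand. The most abundant genes of this list, Itgb1 (integrin β1) and Ncl (nucleolin), were measured at 132.3 and 75.1 FPKM in WT and 114.7 and 69.1 FPKM in ERβKO ovaries, with FDR values of 0.118 and 0.228 in edgeR. Alk, a receptor tyrosine kinase reported to respond to both ligands, directly or not, was too low to be tested, with at most 5 counts in an ovary, as were Cntn6 and Tnn.

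All 17 substrates and intracellular partners of Ptprz1 were tested, and 1 was higher and 0 were lower by the criteria for DEGs (median log2FC -0.045). Magi1, a scaffold protein of cell junctions that the phosphatase can dephosphorylate, had FPKM of 6.04, 6.15, 5.24, 6.33 and 5.50 across WT replicates 1 to 5, compared with 9.79, 8.62, 8.04 and 7.84 across ERβKO replicates 1 to 4. No WT ovary reached the lowest ERβKO ovary. The log2FC of Magi1 was 0.52 (SE 0.075), with an FDR of 0.0115 in edgeR, and it was called in all 9 fits that left out an ovary. Over 18 alternative fits its FDR ran from 4.5e-07 to 0.0628. Differences that passed the test but lay below the limit of 0.4 on the log2 scale were measured for Arhgap35, which encodes p190RhoGAP, at 0.33 (FDR = 0.0345, edgeR), and for Git1, at 0.25 (FDR = 0.0486, edgeR); they were named after their values were seen. Ctnnb1, the gene of β-catenin and the most abundant gene of the list, was measured at 161.9 ± 17 FPKM across WT ovaries (SD, n = 5) and 131.5 ± 2.3 FPKM across ERβKO ovaries (SD, n = 4), with a log2FC of -0.33 and an FDR of 0.0757 in edgeR. Add1, an adducin of the membrane skeleton, followed at 82.2 and 77.7 FPKM (FDR = 0.618, edgeR).

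**Figure D5:**
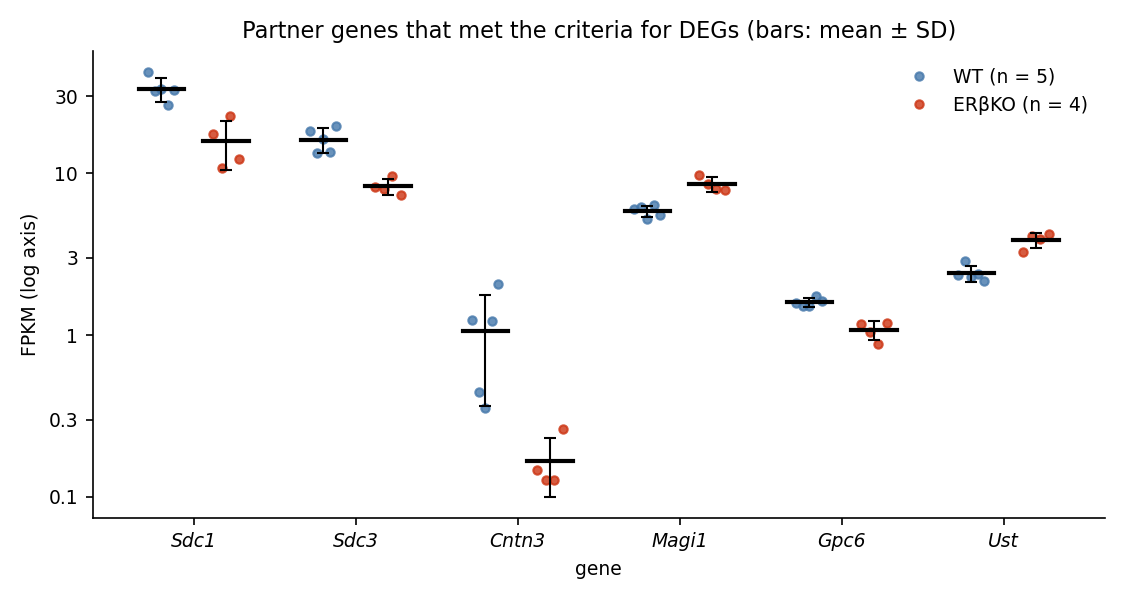
FPKM (log axis) of the 6 partner genes that met the criteria for DEGs in each of 5 WT (blue) and 4 ERβKO (red) ovaries; points are ovaries, and bars are the mean ± SD. Sdc1, Sdc3, Cntn3 and Gpc6 are lower and Magi1 and Ust are higher in all 4 ERβKO ovaries than in any WT ovary.

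Chondroitin sulphate chains on PTPRZ1 hold the ligands, and 20 genes of their synthesis were listed. Of these 19 were tested, and 1 was higher and 0 were lower (median log2FC -0.015). Ust, a sulphotransferase that acts on uronic acid residues of the chains, had FPKM of 2.34, 2.87, 2.28, 2.40 and 2.16 across WT replicates 1 to 5, compared with 3.28, 4.09, 3.90 and 4.20 across ERβKO replicates 1 to 4. The genotypes were apart, and the log2FC was 0.68 (SE 0.11). The FDR of Ust in edgeR was 0.0154, and the call was lost without ERβKO replicate 2 (0.0622) or 4 (0.0596). Over 18 alternative fits the FDR of Ust ran from 7.94e-06 to 0.107. The most abundant gene of the list, Chst11, a sulphotransferase of chondroitin, was measured at 28.5 ± 4.0 FPKM across WT ovaries (SD, n = 5) and 37.2 ± 3.3 FPKM across ERβKO ovaries (SD, n = 4), with an FDR of 0.124 in edgeR. B3gat3, which completes the linker to the core protein, had means of 14.2 and 16.1 FPKM (FDR = 0.384, edgeR).

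Of 26 ligands and partners of the LAR-type phosphatases 21 were tested, and 1 was lower and 0 were higher (median log2FC 0.10). Gpc6, glypican 6, a heparan sulphate proteoglycan and ligand of PTPRS, had FPKM of 1.58, 1.50, 1.52, 1.74 and 1.62 across WT replicates 1 to 5, compared with 1.18, 1.05, 0.884 and 1.19 across ERβKO replicates 1 to 4. All ERβKO ovaries were below all WT ovaries. The log2FC of Gpc6 was -0.60 (SE 0.12), at an FDR of 0.0323 in edgeR, and it was called in 2 of 9 fits that left out an ovary, those without WT replicate 2 or 3. Nid1 (nidogen 1) and Ppfibp1 (a liprin), the most abundant genes of the list, had means of 28.8 and 24.4 FPKM in WT and 27.3 and 28.0 FPKM in ERβKO ovaries, with FDR values of 0.666 and 0.473 in edgeR.

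Of 13 other receptor-type phosphatases 12 were tested and 0 met the criteria for DEGs (median log2FC 0.24). Ptpra, the most abundant of them, had means of 34.4 ± 2.3 FPKM across WT ovaries (SD, n = 5) and 33.8 ± 1.6 FPKM across ERβKO ovaries (SD, n = 4), with an FDR of 0.609 in edgeR. Ptprv, the next by level, had means of 4.71 and 5.85 FPKM (FDR = 0.530, edgeR). Ptprn, a phosphatase-like protein of secretory granules, had an FDR of 0.0285 in that test at a mean FPKM below 1 in both genotypes, and it was named after its values were seen. Its FPKM were 0.304, 0.762, 1.48, 0.221 and 0.498 in WT replicates 1 to 5, against 0.0362 and 0.0594 in ERβKO replicates 1 and 2, with replicates 3 and 4 listed at 0.

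Among the 5 genes whose pattern over the 9 ovaries was most like that of Ptprz1, by Pearson's r of log2 CPM (counts scaled to library size) among 14178 genes, were Mast4 (0.979), Ppp1r16a (0.973), Hpgd (0.970) and Prr12 (0.966). These points share their libraries and fall into 2 genotypes that differ in Ptprz1, so r is a description that contains the difference between the genotypes. Mast4, a kinase, had a mean FPKM of 12.3 across WT and 19.5 across ERβKO ovaries, and Hpgd, which encodes an enzyme that inactivates prostaglandins, had means of 27.8 and 52.8 FPKM in the same order. For deviations from the genotype means the most similar genes were Emc8 (r = 0.924), Prrc2b (0.914), Sox5 (0.911), Fos (0.904) and Gm13241 (0.895). None of the 10 genes was shared by both rankings, and with log2(FPKM + 1) 2 of the first 5 and 0 of the second 5 stayed among the top 5. Among the other 9 members r with Ptprz1 over the 9 ovaries ran from -0.74 for Ptprs to 0.74 for Ptprf, with 0.0079 for Ptn and -0.25 for Mdk.

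Summed levels of the markers of 3 cell types did not overlap between the genotypes, and lists whose sums overlapped are given below. Of the 14178 single genes tested with a mean FPKM over 1, 8.15% did not overlap (4.56% higher and 3.59% lower in ERβKO ovaries). No such share was calculated for sums of genes. The summed FPKM of 10 granulosa cell markers was 687.0 to 780.5 in WT and 893.5 to 1184 in ERβKO ovaries. Of these 2 of 10 were called higher, as were 0.915% of all genes tested, and 10 of 10 had a positive log2FC, as had 49.9%. All tested markers of surface epithelium (7), macrophages, adipocytes and oocytes (5 each) had a positive log2FC too. Inha, the largest part of the granulosa sum, had a mean FPKM of 352.3 across WT and 509.2 across ERβKO ovaries. It was not called (FDR = 0.0610, edgeR). The sum of 5 theca cell markers was 464.4 to 726.8 in WT and 834.8 to 1716 in ERβKO ovaries. Of 4 tested 1 was called higher, beside 0.915% of all genes tested. Aldh1a1, the gene called, made up most of the mean sum, with a mean FPKM of 520.7 across WT and 1092 across ERβKO ovaries. Of the other theca cell markers Cyp17a1, the enzyme of androgen synthesis, had a mean FPKM of 48.4 across WT and 245.7 across ERβKO ovaries. Its values overlapped, from 1.82 to 127.6 FPKM in WT and from 50.0 to 472.0 FPKM in ERβKO ovaries. The log2FC of Cyp17a1 was 2.35, with an FDR of 0.205 in edgeR. Ptch1 and Gli1 had log2FC of 0.033 and 0.12, and Insl3 had at most 5 counts in an ovary. The sum of 5 Sertoli cell markers was 11.0 to 12.2 in WT and 17.5 to 21.7 in ERβKO ovaries. Of 4 tested 1 was called higher, beside 0.915% of all genes tested. Dhh, the gene called, had a mean FPKM of 3.83 across WT and 9.09 across ERβKO ovaries. The study also lists it among genes enriched in human granulosa cells. Sox9 and Cldn11, with log2FC of 0.77 and 0.87, were not called, and Ptgds had a log2FC of -0.025. These genes were named after their values were seen. Dmrt1 was listed at 0 FPKM in all 9 ovaries. The part of these cell types in the level of Ptprz1 was not tested.

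Glia, in which Ptprz1 is best known, were followed with Schwann cell and glial markers, of which 4 are given here. The transcription factors Sox10 and Foxd3 had at most 6 and 3 counts in any ovary. Mbp, a myelin gene, was called lower, as were 0.801% of all genes tested. Its level was 5.88 to 11.8 FPKM in WT and 3.97 to 5.32 FPKM in ERβKO ovaries. S100b, which encodes a calcium-binding protein, was at 3.36 to 23.7 FPKM in WT and 6.13 to 40.7 FPKM in ERβKO ovaries and was not called. The part of such cells in the level of Ptprz1 was not tested. Of 10 luteal markers 0 were called, beside 1.72% of all genes tested, and 1 had a positive log2FC, as had 49.9% of all genes tested. Their median log2FC was -0.86. For the summed luteal markers and for the other 8 lists of markers the ranges of the genotypes overlapped.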

How the data were processed

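RNA from 5 WT and 4 ERβKO ovaries was made by the authors into stranded libraries of polyadenylated RNA and sequenced as read pairs of 150 bases. The submitters' processing notes name bcl2fastq 2.20.0.422, CASAVA, Trim Galore, STAR, featureCounts and StringTie and the build mm10, which is GRCm38. The deposited counts are raw counts per gene made by the authors with featureCounts, with no normalization. The deposited FPKM, TPM and coverage (signal) values were calculated by the authors with StringTie: FPKM and TPM are scaled for length and depth, and coverage is not scaled for depth and was used only beside the ranks of levels. In FPKM 1 mitochondrial gene, mt-Nd4l, took 55.9 to 58.4% of the summed value of a library. The versions of STAR, featureCounts and StringTie, and whether counting used the strand, are not given in the sources used here. Replicates are biological per the labels and were not pooled, and no 2 libraries of the same genotype agreed within sampling noise (lowest chi-square per degree of freedom 10.7).

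Counts were filtered with filterByExpr, normalized by TMM and tested over all 16722 remaining genes with edgeR 4.0.16 (quasi-likelihood test, Benjamini-Hochberg adjustment) in R 4.3.3, with genotype as the factor. The common biological coefficient of variation was 0.179. Alternatives were DESeq2 1.42.0, the tool of the study, other size factors and filters, the replicate number as a block, each ovary left out, the libraries numbered below 200, and limma 3.58.1 on log2 FPKM plus 1 or 0.1. Other steps used Python 3.11.15, NumPy 2.4.6, pandas 2.3.3, SciPy 1.17.1 and Matplotlib 3.10.9. The tests were tried on simulated counts. Log2 CPM, counts scaled to library size, used a prior count of 2. Exon overlaps are from GENCODE vM21 and promoters from RefSeq on GRCm38.p6.

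The 10 genes, the 5 lists of partners and the 13 lists of cell type markers were chosen with earlier results of these data known. The text names all 10 genes, each listed partner past the criteria for DEGs, the 2 of each list with the highest mean FPKM, and the 5 genes most correlated with Ptprz1 by each measure. Of the genes most correlated with Ptprz1 1 gene, and of the glial markers 2 genes and the sum of the list, are not reported here. Others are said to be named after their values were seen.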

Additional observations from a re-analysis of the deposited data

How the results depend on the processing

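The log2 fold change of Ptprz1, which was chosen for it, was 1.53 with limma on log2(FPKM + 1), which compresses low values, and 1.81 to 1.97 with an ovary left out. Of the other 9 members 0 were called in 17 of 18 alternative fits and 1, Ptprf, in that without WT replicate 2, so that with Ptprz1 counted 1 to 2 members were called with an ovary left out. The sign of the log2 fold change of Ptn was negative without WT replicate 1 (-0.088), WT replicate 4 (-0.12), WT replicate 5 (-0.061), ERβKO replicate 3 (-0.12) or ERβKO replicate 4 (-0.028) and with the libraries numbered below 200 (-0.26), and 0.29 without WT replicate 3; its adjusted p was never below 0.555. DEGs over all genes numbered 287 in the fit reported, 800 with DESeq2, 191 with limma on log2(FPKM + 1), 51 with the libraries numbered below 200 and 60 to 919 with an ovary left out. Partner genes called numbered 6, 1 with the libraries numbered below 200 and 1 to 9 with an ovary left out. With the replicate block on 8 ovaries, 151 DEGs and 3 partner genes were called. The labels give the replicate numbers no shared animal, litter or day, same-numbered ovaries had correlations of deviations from -0.043 to 0.13 over 4 pairs, and 0 of 4 WT ovaries correlated best with their own number. Of the 5 genes most like Ptprz1 over the 9 ovaries 2 stayed in the top 5 with log2(FPKM + 1), and of the 5 most like it in deviations 0 stayed. The causes of these differences were not tested.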
